A study of Saccharomyces cerevisiae with 7 samples.

Results

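GFPdeg is a green fluorescent protein that carries a degradation signal at its C terminus, and it was compared with the same protein without the signal, called GFP. Both were expressed from the very strong *TDH3* promoter on the same plasmid, so that by the labels the cultures differed in the degradation signal only. The comparison takes the 1 array labelled GFPdeg and the 1 array labelled GFP out of the 7 arrays of the series, and describes the difference over all 6225 systematic names on the array. The host of all 7 cultures was the haploid *MATa* strain BY4741, in which *HIS3*, *LEU2*, *MET17* (also called *MET15*) and *URA3* are deleted. The plasmid carries *URA3* and *LEU2*, the cells were grown to log phase in SC medium lacking uracil, and the copy number of the plasmid, which the selection lets vary, was not measured on the arrays. The other 5 arrays were an empty vector (Vector), a misfolding mutant (misfoldingGFP) and GFPs with a signal for the mitochondria (MTS-GFP), for nuclear export (NES-GFP) or for the secretory pathway (ssGFP). The labels name the *PYK1* promoter for misfoldingGFP, MTS-GFP and ssGFP and the *HXT7* promoter for NES-GFP, so these arrays differ from GFPdeg in the promoter too, and their levels only show where GFPdeg and GFP lie.

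The 26S proteasome is the protease that degrades most short-lived proteins of the cytosol and nucleus. Its 20S core particle holds the proteolytic sites inside a barrel of alpha and beta subunits, and the 19S regulatory particle, made of a base with a ring of ATPases and of a lid, recognizes substrates, removes ubiquitin and unfolds the chain. Most substrates are marked with ubiquitin by the E1, E2 and E3 enzymes, and some are brought to the proteasome by shuttle proteins or are first extracted from complexes by the ATPase Cdc48. The signal in GFPdeg derives from mouse ornithine decarboxylase, the classical example of a protein that the proteasome degrades without ubiquitin. In budding yeast, the transcription factor Rpn4 drives the genes of the proteasome, and is itself a very short-lived substrate of it.

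A level is the log2 of the spot signal relative to the 75th percentile of its array, so that a level of 0 is the signal of that percentile. A difference is the level in GFPdeg minus the level in GFP, and a gene is counted as over 2-fold higher or lower when the difference exceeds 1 in size on the log2 scale. Each construct was measured on 1 array, so no test was possible and no p-value is given. The error given with a difference is the standard error over the spots of a probe (7 per probe on each array). It covers the measurement on the array only, and leaves out what labelling, hybridization and the culture add. GFPdeg, GFP and ssGFP were on the same slide, and the other 4 arrays were on the other slide, so that a difference from Vector cannot be told apart from a difference between slides. No spot was saturated. The genes well above background numbered 6158 in GFPdeg, against 6034 to 6082 on the other 6 arrays. The array held no probe for GFP, so the transcript of the transgene was not measured. *HIS3* and *MET17*, deleted in the host, were not well above background on any of the 7 arrays. The 7 genes that mark *MATa* cells, among them the a-factor gene *MFA1* and the receptor gene *STE2*, were well above background on both arrays. So were the 4 alpha-specific genes, with *MF(ALPHA)1* (YPL187W), which encodes alpha-factor, at a level of -7.01 in GFPdeg and -6.90 in GFP, and *STE3* (YKL178C), the a-factor receptor, at -3.07 and -2.97.

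Of the 6225 genes, 95 (1.53%) were over 2-fold higher in GFPdeg than in GFP and 33 (0.53%) were over 2-fold lower. The difference lay above 0 for 49.7% of all genes, and 90% of the genes lay between -0.51 and 0.67. Among the 6081 genes well above background on both arrays, 81 (1.33%) were higher and 33 (0.543%) lower. The higher genes were thus more numerous, and 8 of them exceeded 4-fold, while no lower gene did. The split depended on the processing, with 77 higher and 47 lower genes after quantile normalization, 140 and 27 without scaling, and 46 and 29 with another background correction (normexp). The plot of both levels shows the proteasome subunits as a narrow band just inside the 2-fold line. The threshold cuts through a dense part of the distribution, since 34 genes lay within 0.1 above it and 45 within 0.1 below it on the higher side. With all genes ranked by signal into 10 bins of equal size, 50 of the 95 higher genes were in the 2 dimmest bins, and the median difference was 0.14 in the dimmest bin, against -0.03 to -0.01 in the others. GFPdeg was also the array with the most genes above background, and the part of this offset in the calls of dim genes was not tested. With normexp, 46 of the 95 genes remained over 2-fold higher. Normexp as run here added a constant of 50 to each corrected signal. That constant by itself shrinks the differences of dim genes, so the lost calls are no separate check of those genes.

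**Figure D1:**
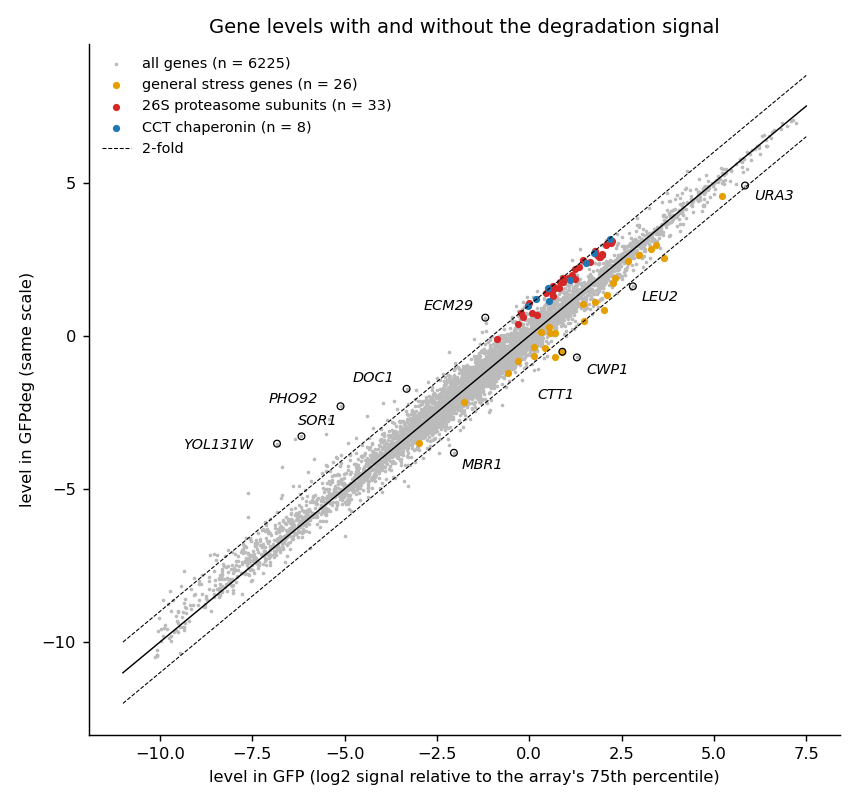
Level of each of the 6225 genes in GFP (horizontal) and in GFPdeg (vertical), both as log2 signal relative to the 75th percentile of the array, with 26S proteasome subunits (red), CCT chaperonin subunits (blue), general stress genes (orange) and single named genes (circled). The solid line marks equal levels and the dashed lines a 2-fold difference, and all 33 proteasome subunits lie above the solid line, whereas all 26 stress genes lie below it.

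GFPdeg was the highest of the 7 arrays for 74 of the 95 higher genes (77.9%), against 1369 of all 6225 genes. Relative to Vector, these 95 genes had a median of 1.21 in GFPdeg and -0.06 in GFP. For the 33 lower genes, GFPdeg was the lowest of the 7 arrays in 10 cases and GFP the highest in 10, against 1014 and 903 of all 6225 genes. Their median relative to Vector was -0.37 in GFPdeg and 1.05 in GFP. The choice of these genes by the difference between the same arrays fixes part of this pattern, and the values are given as a description.

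**Figure D2:**
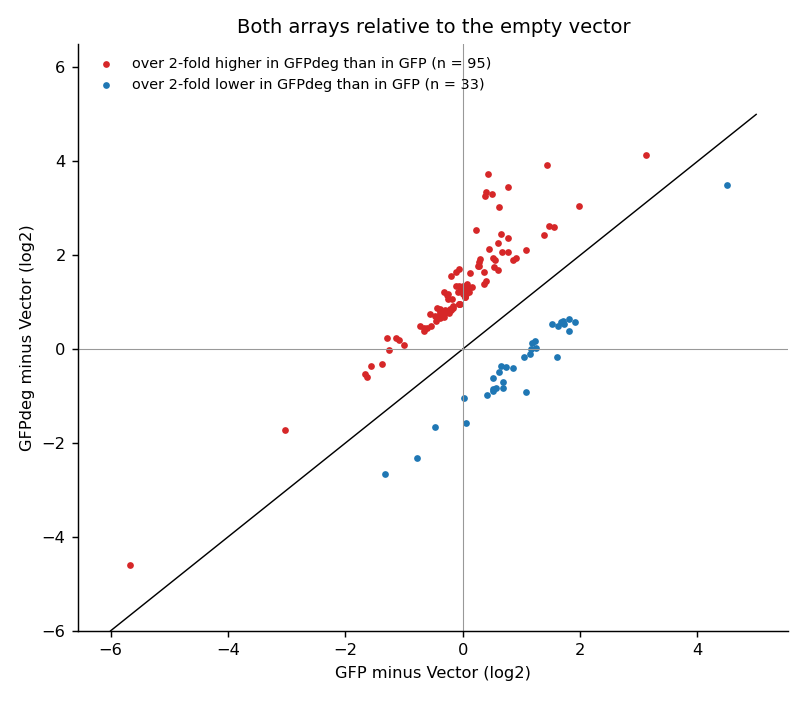
Each gene over 2-fold higher (red, 95 genes) or lower (blue, 33 genes) in GFPdeg than in GFP, with its level in GFP minus Vector (horizontal, log2) and in GFPdeg minus Vector (vertical, log2). Both axes share the Vector array, the solid line marks equal values, and the blue points lie mostly to the right of 0 on the horizontal axis.

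All 33 subunits of the 26S proteasome had higher levels in GFPdeg than in GFP, with a median difference of 0.83 (lowest 0.47, highest 1.07). GFPdeg was the highest of the 7 arrays for 33 of 33 subunits (1369 of all 6225 genes), by 0.03 to 0.94 above the next array. Of the 33 genes, 3 exceeded 2-fold (1 after quantile normalization, 11 without scaling), so the band lies mostly just under the threshold. The median of the subunits in GFPdeg was 0.59 above Vector, 0.77 above ssGFP, 0.84 above misfoldingGFP, 0.81 above MTS-GFP and 0.83 above NES-GFP, whereas GFP itself was at -0.24 from Vector. These comparisons share the GFPdeg array and are not independent of each other. Of the neighbours of the subunit genes by systematic number, 61 were no subunits themselves, and their median difference was 0.07, with 2 over 2-fold higher.

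In the 20S core particle, the differences of the 14 genes ranged from 0.67 to 0.99, with a median of 0.83, and none exceeded 2-fold. *PRE6* (YOL038W), an alpha subunit, lay at 2.46 in GFPdeg, at 1.46 in GFP and between 1.38 and 1.74 on the other 5 arrays (difference 0.99 ± 0.02, SE over spots). *PRE2* (YPR103W), which encodes the beta subunit with chymotrypsin-like activity, lay at 3.11 in GFPdeg, 2.25 in GFP and 1.69 to 2.24 elsewhere, a difference of 0.86 ± 0.02. The genes of the other proteolytic subunits, *PRE3* (YJL001W, caspase-like) and *PUP1* (YOR157C, trypsin-like), differed by 0.90 and 0.83. The alpha and beta genes were interspersed in this order, and the lowest value was that of *PUP3* (YER094C), a beta subunit without an active site, which lay at 2.63 in GFPdeg and 1.96 in GFP. Even for *PUP3*, the GFPdeg array stood above the highest of the other 5 arrays (2.24).

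The 10 genes of the 19S base had a median difference of 0.92 and included the 3 subunits over 2-fold. *RPT2* (YDL007W), an ATPase of the ring that opens the gate of the core, lay at 1.07 in GFPdeg and between -0.11 and 0.26 on the other 5 arrays, with a difference from GFP of 1.07 ± 0.04. The ATPase genes *RPT6* (YGL048C) and *RPT1* (YKL145W) differed by 1.03 ± 0.03 and 1.01 ± 0.02, so all 3 were within 0.1 of the threshold. *RPN1* (YHR027C) and *RPN2* (YIL075C), the scaffolds of the base, differed by 0.95 and 0.91. The ubiquitin receptor genes *RPN10* (YHR200W) and *RPN13* (YLR421C) differed by 0.76 and 0.47. *RPN13* had the smallest difference of the 33 subunits, at 0.67 in GFPdeg, 0.20 in GFP and 0.22 to 0.41 elsewhere. In the lid, the 9 genes had a median of 0.74, from *RPN12* (YFR052W, 0.62) to *RPN7* (YPR108W, 0.98). *RPN11* (YFR004W), the deubiquitinating enzyme of the lid, lay at 1.55 in GFPdeg, 0.81 in GFP and 0.72 to 0.97 elsewhere. *RPN5* (YDL147W) was the subunit with the least separation, at 0.39 in GFPdeg and up to 0.36 on another array.

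**Figure D3:**
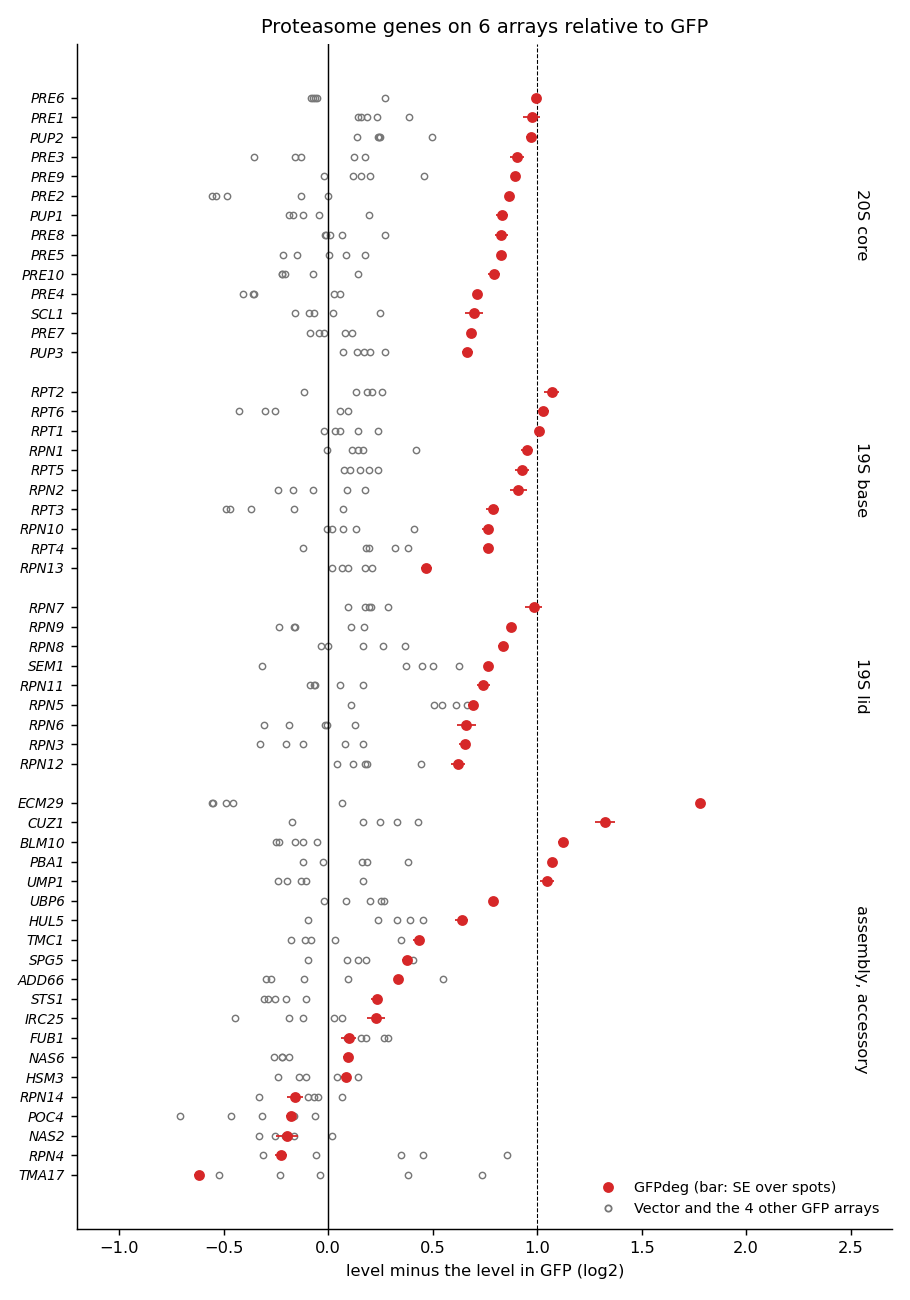
Level of each of 53 proteasome genes minus its level in GFP (log2, horizontal), for GFPdeg (red, with the standard error over spots) and for the other 5 arrays (open circles), grouped by part of the proteasome and sorted by the difference. The solid line marks the level in GFP and the dashed line a level 2-fold higher; the red point is the rightmost in all 33 rows of the core, base and lid.

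The 20 genes of assembly factors and accessory proteins did not move as a block. Their median difference was 0.28, 15 lay above 0, and 5 exceeded 2-fold. *ECM29* (YHL030W), which holds core and regulatory particle together, had the largest difference among all proteasome genes, at 0.59 in GFPdeg, -1.19 in GFP and -1.74 to -1.12 elsewhere, which is 3.44-fold (1.78 ± 0.02). *CUZ1* (YNL155W), a zinc-finger protein that binds Cdc48 and the proteasome, lay at 0.97 in GFPdeg and -0.35 in GFP (2.50-fold). *BLM10* (YFL007W), an alternative cap of the core, lay at -0.89 in GFPdeg, -2.01 in GFP and -2.26 to -2.07 elsewhere (2.18-fold). The assembly factors of the core *PBA1* (YLR199C) and *UMP1* (YBR173C) differed by 2.10-fold and 2.07-fold. For each of these 5 genes, GFPdeg stood above all other arrays.

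The remaining assembly factors were closer to 0. *ADD66* (YKL206C), *IRC25* (YLR021W) and *POC4* (YPL144W), which help to build the alpha ring together with *PBA1* or each other, differed by 0.34, 0.23 and -0.18. The chaperones of the base *NAS6* (YGR232W), *HSM3* (YBR272C), *RPN14* (YGL004C) and *NAS2* (YIL007C) differed by 0.09, 0.08, -0.16 and -0.20, and *TMA17* (YDL110C), a stress-induced base chaperone, by -0.62, the lowest value of the list. The chain-editing enzymes that ride on the proteasome, the deubiquitinase *UBP6* (YFR010W) and the ligase *HUL5* (YGL141W), differed by 0.79 and 0.64. *TMC1* (YOR052C), a further zinc-finger protein of the proteotoxic stress response, differed by 0.43, and *SPG5* (YMR191W), *STS1* (YIR011C, of the nuclear localization of proteasomes) and *FUB1* (YCR076C) by 0.38, 0.23 and 0.10. *RPN4* (YDL020C) itself lay at 0.21 in GFPdeg, at 0.44 in GFP and between 0.13 and 1.29 on the other 5 arrays, a difference of -0.23 ± 0.03. Its transcript was thus not higher in GFPdeg than in GFP, while the 33 subunit transcripts were. The arrays do not measure the Rpn4 protein or its activity, and the part of Rpn4 in these differences was not tested.

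Genes that act just before the proteasome had higher levels as well. The 16 genes of Cdc48, its cofactors and the ubiquitin shuttles had a median difference of 0.77, 14 lay above 0, and 2 exceeded 2-fold. These were the shuttles *DSK2* (YMR276W), at 2.46 in GFPdeg, 1.16 in GFP and 1.04 to 1.71 elsewhere (1.30 ± 0.02), and *DDI1* (YER143W), at 1.46 in GFPdeg, 0.21 in GFP and -0.21 to 0.20 elsewhere (1.25 ± 0.02). The third shuttle, *RAD23* (YEL037C), differed by 0.94. *CDC48* (YDL126C) differed by 0.93, and its substrate-binding partners *UFD1* (YGR048W) and *NPL4* (YBR170C) by 0.98 and 0.90, so that this core complex differed by about as much as the proteasome. *UBX6* (YJL048C), a cofactor of unclear role, was the lowest of the list at -0.53.

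The 23 genes of ubiquitin and its enzymes had a median of 0.22, with 18 above 0 and 1 over 2-fold. That gene was *UBA1* (YKL210W), the single E1 enzyme of yeast, at 2.96 in GFPdeg, 1.93 in GFP and 1.40 to 2.09 elsewhere (1.02 ± 0.03). The polyubiquitin gene *UBI4* (YLL039C) lay at 2.23 in GFPdeg and 1.33 in GFP, but MTS-GFP was higher still (2.36). The ligase genes *SSM4* (YIL030C), of the membrane of the endoplasmic reticulum, *UBR2* (YLR024C), which marks Rpn4, and *UBR1* (YGR184C), of the N-degron pathway, differed by 0.80, 0.76 and 0.55. *DOA4* (YDR069C), a deubiquitinase that acts at endosomes, was lowest at -0.34.

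The 13 genes of the anaphase-promoting complex, a ubiquitin ligase of the cell cycle, had a median of 0.03, and 1 exceeded 2-fold. *DOC1* (YGL240W), its processivity subunit, lay at -1.73 in GFPdeg, -3.32 in GFP and -4.59 to -3.37 elsewhere (1.59 ± 0.03). *APC11* (YDL008W), the catalytic RING subunit, followed with 0.89, and it is the neighbour of *RPT2*. *APC5* (YOR249C), a scaffold, was lowest at -0.18. The gene next to *DOC1*, YGL239C, differed by 0.98. *MAG1* (YER142C), which encodes a DNA glycosylase of base excision repair, lay at 0.13 in GFPdeg and -1.29 in GFP (1.42 ± 0.02) next to *DDI1*, while the list of 14 DNA damage genes had a median of 0.27 and no other member over 2-fold. *ALG13* (YGL047W), of N-glycosylation, differed by 1.01 next to *RPT6*. YDR426C, next to *RPN9* (YDR427W, 0.87), lay at -4.02 in GFPdeg and -5.82 in GFP (1.80 ± 0.04). YGL239C and YDR426C are not in the RefSeq gene table, and whether their probes also caught the transcript of the neighbour was not tested. Of the 90 higher genes with a neighbour on the array, 4 had a neighbour that was also over 2-fold higher, against 172 of 5959 among all genes.

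Because the degradation signal comes from ornithine decarboxylase, the genes of the polyamine pathway were described too. The 10 genes had a median of -0.03, with none over 2-fold in either direction. *SPE1* (YKL184W), which encodes yeast ornithine decarboxylase, lay at -1.90 in GFPdeg, -1.74 in GFP and -1.99 to -1.60 elsewhere. *OAZ1* (YPL052W), whose product antizyme brings this enzyme to the proteasome, differed by 0.80 ± 0.03, at -0.56 in GFPdeg and -1.35 in GFP. GFPdeg was not the highest array for *OAZ1*, since misfoldingGFP lay at 0.02. *TPO4* (YOR273C), a polyamine exporter, was lowest at -0.93.

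Chaperones of the cytosol also had higher levels in GFPdeg. The CCT chaperonin, a ring of 8 subunits that folds actin, tubulin and other proteins, was taken as a list after its members had been seen among the higher genes. All 8 genes lay above 0 (median 0.95, from 0.59 for *CCT7* (YJL111W) to 1.06 for *TCP1* (YDR212W)), 3 exceeded 2-fold, and GFPdeg was the highest of the 7 arrays for 8 of 8. The 3 are 0 after quantile normalization and 5 without scaling. Of all 6225 genes, 95 were over 2-fold higher, and GFPdeg was the highest array for 1369. The choice of this list by its higher members fixes part of its counts. *TCP1* lay at 1.57 in GFPdeg, 0.51 in GFP and 0.03 to 0.90 elsewhere, *CCT8* (YJL008C) at 0.98, -0.04 and -0.41 to 0.16, and *CCT3* (YJL014W) at 1.19, 0.17 and -0.06 to 0.70. Prefoldin, which delivers chains to the chaperonin, had a median of 0.31 over 6 genes. Further factors among the higher genes were *NPA3* (YJR072C), needed for import of RNA polymerase II, with 1.18 and *GET3* (YDL100C), which targets tail-anchored proteins, with 1.07.

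The 27 cytosolic chaperone genes fixed as a list had a median of 0.49, with 23 above 0. The 1 member over 2-fold was *BTN2* (YGR142W), which sorts misfolded proteins, at 1.1 in GFPdeg, -0.17 in GFP and -1.07 to 2.0 elsewhere (1.27 ± 0.03). The highest array for *BTN2* was misfoldingGFP, and the same held for the whole list, in which GFPdeg lay 0.52 below misfoldingGFP in median but 0.29 above Vector and 0.59 above ssGFP. Within the list, the Hsp70 and Hsp90 genes *SSA2* (YLL024C) and *HSP82* (YPL240C) and the nucleotide exchange factor *SSE1* (YPL106C) differed by 0.78, 0.87 and 0.93. The disaggregase *HSP104* (YLL026W) and the small heat shock protein *HSP26* (YBR072W) lay near 0, with -0.01 and -0.13, and *SSE2* (YBR169C), a paralogue of *SSE1*, was lowest with -0.81. Mitochondrial chaperones and proteases had a median of 0.27 over 12 genes, highest for the protease gene *PIM1* (YBL022C, 0.82). Genes of folding and degradation in the endoplasmic reticulum had a median of 0.05 over 21 genes, although *PDI1* (YCL043C), protein disulfide isomerase, differed by 0.93.

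**Figure D4:**
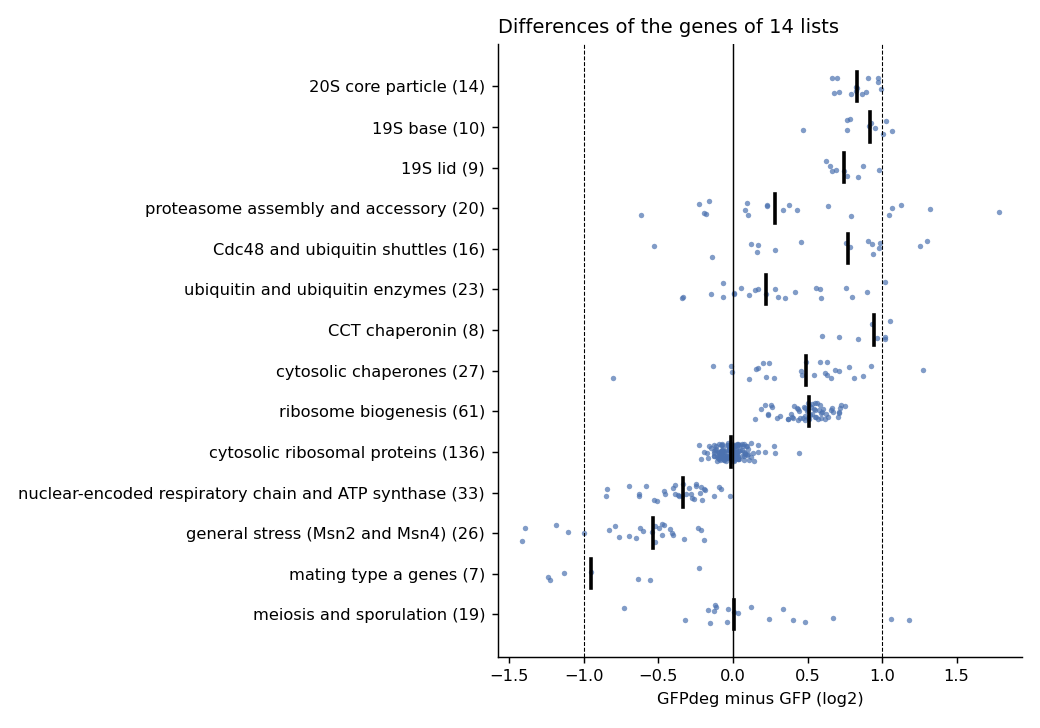
Difference of each gene (GFPdeg minus GFP, log2, horizontal) in 14 lists, with the number of genes in parentheses and the median as a black bar. The dashed lines mark 2-fold, and the 3 parts of the proteasome and the CCT chaperonin lie right of 0 without exception, as does ribosome biogenesis, while all respiratory, stress and a-specific genes lie left of it at this scaling.

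Most of the largest differences did not come from the lists described so far, although *ECM29* (1.78) was among the 12 highest genes. Among genes well above background on both arrays, the first was YOL131W, an uncharacterized gene, at -3.52 in GFPdeg, -6.83 in GFP and -7.97 to -7.04 on the other 5 arrays, which is 9.90-fold (3.31 ± 0.08). *SOR2* (YDL246C) and *SOR1* (YJR159W), which encode sorbitol dehydrogenases, lay at -3.37 and -3.28 in GFPdeg and at -6.33 and -6.17 in GFP (7.81-fold and 7.39-fold). They are near-identical copies whose transcripts may bind each other's probes, so they count as a single observation. Both genes stood above every other array by over 2-fold. *PHO92* (YDR374C), a reader of methylated RNA, lay at -2.30 in GFPdeg and -5.11 in GFP (7.00-fold). YBL065W, which is not in the RefSeq gene table, lay at -2.73 and -5.41. *BSC1* (YDL037C) differed by 2.49 but was well above background on 3 of the 7 arrays only, and was the only one of the 12 highest genes that fell under 2-fold with normexp (0.86). *FRM2* (YCL026C-A), of the nitroreductase family, and *SDH9* (YJL045W), a minor paralogue of succinate dehydrogenase, differed by 1.77 and 1.76. For *FRM2*, misfoldingGFP (-1.55) was higher than GFPdeg (-2.62). *HXT9* (YJL219W), a hexose transporter gene, lay at -0.54 in GFPdeg, -2.18 in GFP and -2.84 to -2.32 elsewhere (1.64 ± 0.03). The list of 15 hexose transporters and sensors had a median of -0.39, so *HXT9* lay far from its list. Its near-identical copy *HXT11* (YOL156W) differed by 0.30, and their transcripts may bind each other's probes.

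Several of the highest genes are known for their roles in meiosis and spore formation, which haploid cells do not undergo. *RIM4* (YHL024W), an RNA-binding regulator of meiosis, lay at -3.20 in GFPdeg, -5.50 in GFP and -5.75 to -4.56 elsewhere (4.95-fold). *SMA1* (YPL027W), of the spore membrane, lay at -4.30 in GFPdeg, -6.70 in GFP and -7.51 to -5.73 elsewhere (5.28-fold). *LDS1* (YAL018C), of the spore wall, *HFM1* (YGL251C), a helicase of meiotic crossing over, *SPO1* (YNL012W), of meiotic spindle poles, and *SPR28* (YDR218C), a septin of sporulation, differed by 1.70, 1.53, 1.17 and 1.15, and *PHO92* also acts in meiosis. GFPdeg was not the highest array for *HFM1*, *SPO1* and *SPR28*. These genes were picked out after their values had been seen. The fixed list of 19 genes of meiosis and sporulation had a median of 0.01. Of its members, 2 exceeded 2-fold (1 after quantile normalization or loess, 0 with normexp). They were *HOP1* (YIL072W), of the meiotic chromosome axis, with 1.18, for which ssGFP was highest, and *SPS2* (YDR522C), which was not well above background in GFP. The regulator of meiotic entry *IME1* (YJR094C) was lowest with -0.73.

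Among the 95 higher genes, 10 were well above background in GFPdeg only, and 4 in neither array. The fold of the 10 is a lower bound, the level in GFPdeg against the lowest level among probes well above background in GFP, and it was at least 1.92-fold for YDR199W, 1.74-fold for YBR064W, 1.71-fold for *HXT14* (YNL318C) and 1.69-fold for *PGU1* (YJR153W), with smaller or no bounds for the other 6. None of the 10 can be placed beyond 2-fold by its bound.

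On the lower side, the strongest difference was that of *CWP1* (YKL096W), which encodes a cell wall mannoprotein, at -0.71 in GFPdeg, 1.29 in GFP and -0.06 to 1.32 on the other 5 arrays (3.99-fold lower, with an SE of 0.05 on the log2 scale). *MBR1* (YKL093W), named for mitochondrial biogenesis, lay at -3.82 in GFPdeg, -2.04 in GFP and -4.21 to -2.69 elsewhere (3.44-fold lower). The filamentous growth regulator *NFG1* (YLR042C), YOR345C and *AFR1* (YDR085C), which acts in adaptation to pheromone, differed by -1.62, -1.55 and -1.52. *PIR3* (YKL163W), another cell wall gene, *RSB1* (YOR049C), of sphingoid base release, *ATG39* (YLR312C), an autophagy receptor, YLR162W and *FRE7* (YOL152W), a reductase gene of copper deprivation, differed by between -1.34 and -1.40. The cell wall genes *CWP1* and *PIR3* were lowest in GFPdeg among the 7 arrays, whereas *MBR1* was highest in GFP.

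The general stress genes, targets of the transcription factors Msn2 and Msn4, were lower in GFPdeg throughout. All 26 lay below 0 (median -0.53), and 4 exceeded 2-fold. *CTT1* (YGR088W), cytosolic catalase, lay at -0.52 in GFPdeg, 0.90 in GFP and -0.92 to 1.38 elsewhere (-1.42 ± 0.03). *DCS2* (YOR173W), *DDR2* (YOL052C-A) and the hexokinase gene *HXK1* (YFR053C) differed by -1.40, -1.19 and -1.11. *PGM2* (YMR105C), phosphoglucomutase, differed by -1.0, just short of the threshold, and *ALD2* (YMR170C), an aldehyde dehydrogenase, was closest to 0 with -0.19. The list had a median of 0.38 above Vector in GFP and of -0.24 relative to Vector in GFPdeg, and GFPdeg was at -1.56 from MTS-GFP, at -0.74 from NES-GFP and at 0.16 from misfoldingGFP in median.

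The 33 nuclear genes of the respiratory chain and ATP synthase also lay below 0 (median -0.33, none over 2-fold, and 3 of the 33 above 0 without scaling), from *CYT1* (YOR065W, cytochrome c1, -0.85) to *ATP5* (YDR298C, -0.02). GFP was the highest of the 7 arrays for 15 of the 33 (903 of all 6225 genes), and GFPdeg the lowest for 11 (1014 of all genes). Relative to ssGFP, their median in GFPdeg was 0.00, so the difference of the list from GFP was not seen against ssGFP. In the opposite direction, all 61 genes of ribosome biogenesis lay above 0 (median 0.51), from *GAR1* (YHR089C, 0.15), of ribosomal RNA modification, to *NOP15* (YNL110C, 0.75), of the large subunit, and none exceeded 2-fold. GFP was the lowest of the 7 arrays for 26 of the 61 (576 of all 6225 genes). GFPdeg was the highest for 19 (1369 of all genes). Relative to Vector, this list stood at -0.28 in GFP and 0.22 in GFPdeg, and misfoldingGFP was above GFPdeg. The 136 genes of cytosolic ribosomal proteins, by contrast, had a median of -0.01, from -0.23 (*RPL41A*, YDL184C) to 0.44 (*RPS14B*, YJL191W).

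The genes that mark *MATa* cells had a median of -0.95, all 7 below 0 and 3 over 2-fold. *MFA1* (YDR461W), the gene of the mating pheromone a-factor, lay at 1.52 in GFPdeg, 2.77 in GFP and 1.41 to 3.07 elsewhere (-1.24 ± 0.01). *STE6* (YKL209C), the exporter of a-factor, was closest to 0 with -0.23. *ASG7* (YJL170C) and the agglutinin gene *AGA2* (YGL032C) differed by -1.22 and -1.13, and *AGA1* (YNR044W), which anchors the product of *AGA2*, by -1.05. The 11 pheromone response genes, *AGA1* among them, had a median of -0.36. The median of the 7 genes relative to Vector was 0.93 in GFP, 0.98 in ssGFP and 0.28 in GFPdeg. The alpha-specific genes had a median of -0.11 over 4 genes.

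**Figure D5:**
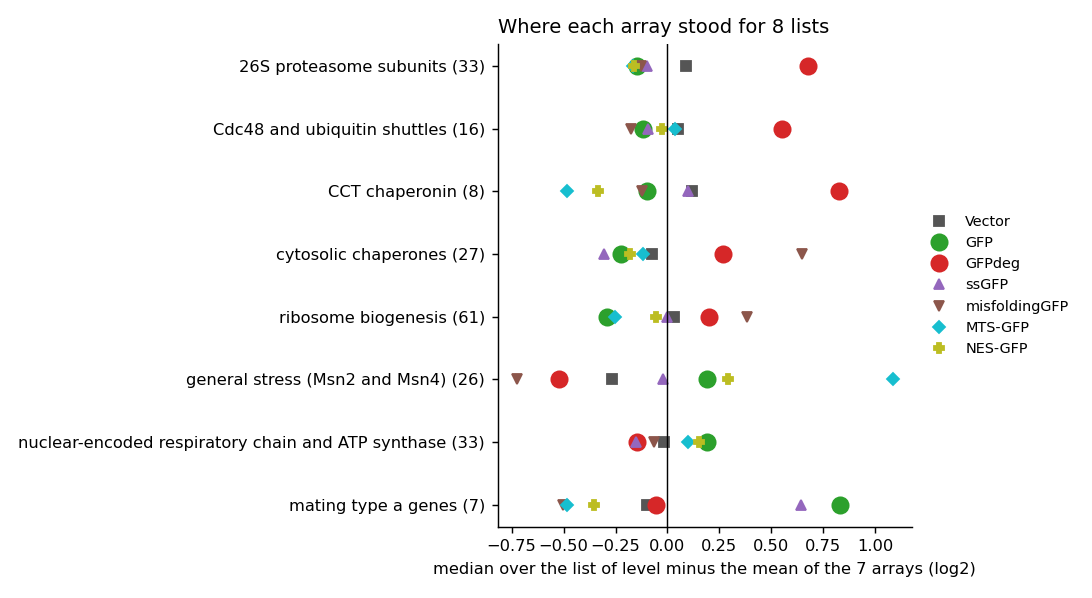
Median over 8 lists (number of genes in parentheses) of the level on each of the 7 arrays minus the mean of the 7 arrays (log2, horizontal), with GFPdeg and GFP as large circles. GFPdeg stands alone at the right for the proteasome, the Cdc48 genes and the CCT chaperonin, misfoldingGFP is further right for the chaperones and ribosome biogenesis, and GFP and ssGFP stand together at the right for the a-specific genes.

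The marker genes of the plasmid were lower in GFPdeg. *URA3* (YEL021W), which the medium selects for, lay at 4.90 in GFPdeg, 5.84 in GFP and 3.40 to 6.75 elsewhere (-0.94 ± 0.02). *LEU2* (YCL018W), of leucine synthesis, lay at 1.62 in GFPdeg, 2.81 in GFP and 1.09 to 3.27 elsewhere (-1.19 ± 0.04). The transcripts of both markers were thus 1.92-fold and 2.28-fold lower in GFPdeg, and whether the transgene was transcribed equally in both cultures was not measured. The part of this difference in plasmid transcripts in the other results was not tested.

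Several other lists had 1 or 2 members over 2-fold. Iron uptake genes had a median of 0.42 over 20 genes, with the siderophore transporter gene *ENB1* (YOL158C) at 1.06, but the list lay at -0.28 relative to Vector, where GFP lay at -0.60. Zinc-responsive genes had a median of 0.21 over 15 genes, with *ADH4* (YGL256W, 1.13), an alcohol dehydrogenase, and *ZPS1* (YOL154W, 1.09), of the zinc response, over 2-fold, and lay at -0.21 relative to Vector. Also over 2-fold were *THI73* (YLR004C, 1.30) of the thiamine list, the sterol genes *PDR11* (YIL013C, 1.25) and *ERG25* (YGR060W, 1.04) and the cell wall gene *DAN1* (YJR150C, 1.06). In this order, they differed from Vector by -1.73, -0.02, -0.59 and -4.60 in GFPdeg. They were thus higher than in GFP but not higher than in Vector. The same held for *RTA1* (YGR213C), of lipid transport and drug resistance, which differed by 1.19 from GFP and by -0.37 from Vector. It did not hold for *AAC3* (YBR085W), of the same hypoxic and sterol import list as *PDR11*, which differed by 1.12 from GFP and by 0.83 from Vector. The list of 14 drug resistance genes that holds *RTA1* had a median of -0.10. In it, 10 genes lay below 0, *RSB1* (-1.38) the lowest. *DAN1* went against its list, the 30 anaerobic cell wall genes of the PAU, DAN and TIR families. This list had a median of -0.35, with 28 of 30 below 0. GFPdeg was the lowest of the 7 arrays for 25 of the 30, against 1014 of all 6225 genes. Transcripts of related members of these families may bind each other's probes, which was not tested. The counts may therefore not stand for separate observations. *DAN1* was also dim, at -6.09 in GFPdeg and -7.15 in GFP. It fell under 2-fold with loess, with normexp and with outlier spots kept. Mitochondria-encoded genes had a median of -0.21 over 23 genes. Over the 16 nuclear chromosomes the median difference lay between -0.02 (XVI) and 0.03 (III), a narrow range.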

How the data were processed

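RNA from log-phase cells was extracted with hot phenol, labelled with 1 dye per array and hybridized, 1 culture per array, to Agilent arrays with 6256 yeast probes of 7 spots each. The authors scanned the arrays, and the deposited intensity of each spot is the processed signal of the Feature Extraction software (version 10.10.1.1), which corrects background and is not normalized between arrays. The deposited value table of the series equals this intensity for all 45209 spots of every array, on a linear scale. Here, control spots and spots marked as outliers (333 in GFP, 373 in GFPdeg) were left out, log2 was taken, the 75th percentile of the array was subtracted, and spots and then probes were averaged per systematic name. A probe was well above background when over 50% of its spots were marked so by the software. Spots of the same probe had an SD of 0.10 (log2, pooled over both arrays).

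The unit of comparison was 1 array per construct, so genes were counted past 2-fold and no model was fitted. The members and the gene lists were chosen with earlier results of these data known. There were 47 lists by function. Of these, 2 (CCT chaperonin and prefoldin) were added after the values had been seen, and the ribosomal protein list was corrected then, to drop a gene of RNase P. The named genes were drawn by rule from the 12 highest and 12 lowest genes, the proteasome genes and, of each other list, the members over 2-fold (at most 4 each way) with the highest and the lowest, and other genes given as examples were chosen after their values were seen. Of the names, 5737 matched the RefSeq gene table, which gave the symbols, and 26 belong to no open reading frame. The steps were tested on simulated arrays with planted changes beyond the 2-fold threshold. That test checks the computation only, and not calls near the threshold or variation between cultures. Alternatives were run with Python 3.11.15 and limma 3.58.1 in R 4.3.3. Promoter sequences were not used here, so the planned search for promoter motifs was not run.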

Additional observations from a re-analysis of the deposited data

How the results depend on the processing

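The median difference of the 33 proteasome subunits lay between 0.77 and 0.93 under all alternatives that kept GFP as the reference, at 0.77 against ssGFP and at 0.59 against Vector, and all 33 subunits were above 0 in each case. The number of subunits over 2-fold was between 1 (quantile normalization) and 4 in these scalings, 11 without scaling (which shifts the median of all genes to 0.10) and 0 against Vector. The counts of 95 higher and 33 lower genes stayed within 1.5 times under scaling to the median, quantile normalization (77 and 47), loess, no scaling (140 and 27), the inclusion of outlier spots, medians in place of means, the value table of the series and the filter on background (81 and 33). Normexp gave 46 higher and 29 lower genes. At thresholds of 1.5-fold and 3-fold the counts were 429 and 16 higher and 209 and 3 lower. Against ssGFP there were 188 higher and 79 lower genes, of which 66 and 9 were also among the 95 and 33, and against Vector 367 and 94, of which 57 and 5 were. Normexp turned the sign of *SPS2* (-0.13). Against ssGFP the sign turned for 6 of the 95 higher and 2 of the 33 lower genes and for the medians of 14 of the 47 lists. Among these were *ERG25* (-0.076), *RTA1* (-1.68), *HOP1* (-1.89), *DAN1* (-2.06), *SPO1* (-0.51), *PGU1* (-1.80) and *FRE7* (0.76), and the medians of the plasmid markers (0.10), iron uptake (-0.13), folding in the endoplasmic reticulum (-0.53), hexose transporters (0.02), mitochondria-encoded genes (0.11) and alpha-specific genes (0.27). Against Vector it turned for 7 higher and 12 lower genes and 18 list medians, among them *AGA2* (0.49), *ADH4* (-0.54), *ERG25* (-0.59), *CTT1* (0.39), *RTA1* (-0.37), *PDR11* (-0.018), *ASG7* (0.019), *DAN1* (-4.60), *THI73* (-1.73), *AGA1* (0.17), *DDR2* (0.54) and *ENB1* (-0.31), and the medians of the a-specific (0.28), alpha-specific (0.44), pheromone response (0.03), hexose transporter (0.15), mitochondria-encoded (0.28), endoplasmic reticulum (-0.16), iron (-0.28), zinc (-0.21) and prefoldin (-0.01) lists. With GFP as the reference, at most 5 list medians turned under any alternative (without scaling), among them those of the ribosomal proteins (0.09) and the polyamine genes (0.07), and normexp, loess and quantile normalization turned that of meiosis (-0.14 to -0.09). The cause was not tested. Without scaling, 3 of the 33 respiratory genes lay above 0. With 1 array per construct, no array could be left out, and no paired analysis was possible because each construct has 1 array and the labels give no replicate numbers. The number of arrays limits the precision.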
